A study of Homo sapiens with 4 samples.

Results

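The proteasome subunit genes are described here in MDA-MB231 cells with and without knockdown of PIAS1, a SUMO ligase and transcriptional repressor. They were taken as all probe sets whose only listed symbol is a PSMA, PSMB, PSMC, PSMD, PSME, PSMF or PSMG gene with a number, without the immune subunits PSMB8, PSMB9 and PSMB10. This gave 59 probe sets of 36 genes, among the 22277 probe sets of the array, of which 19070 are listed with exactly 1 gene. MDA-MB231 cells are an established line from a human breast carcinoma. They carried PIAS1 shRNA2 or a scrambled control shRNA, each expressed from the U6 promoter of a lentivirus and kept under puromycin selection as 1 stable line per shRNA. Each line was cultured for 30 h in SCM or in DMEM with 10% FBS. SCM is a serum-free stem cell medium on a DMEM/F12 base with BSA, EGF, basic FGF and insulin. Every condition was measured on 1 Affymetrix human genome array, a chip of short probes grouped into probe sets. A ratio between conditions therefore has no replicate check and no p-value, and a difference due to PIAS1 cannot be told apart from any other difference between the lines.

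The proteasome degrades proteins that have been tagged with ubiquitin. Its core particle is a barrel of alpha rings, which form the gate, around beta rings, which hold the catalytic sites. A regulatory particle with a base of ATPases and a lid binds ubiquitin chains, removes them, unfolds the substrate and threads it into the core. Other activators open the same gate without ubiquitin, and dedicated chaperones put the rings together. The subunits are made in nearly all cells, and in human cells the transcription factor NRF1, encoded by NFE2L1, can raise their genes together when proteasome activity is limiting.

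Signals are MAS5 intensities on a linear scale, and without the lowest and highest 2% of probe sets their mean was 2499 on each array. A background floor of 195 was taken from probe sets of genes of other tissues, and 63.5% to 67.2% of all probe sets were above it on each array. The signal of PIAS1 on its brightest probe set was 671 in PIAS1 shRNA2 cells and 1814 in control shRNA cells in SCM. In DMEM it was 512 in PIAS1 shRNA2 cells and 1383 in control shRNA cells, so the knockdown left 37.0% of control in both media. Another probe set was at 31.5% of control in SCM and 23.8% in DMEM, and the last was at 77.9% in SCM and under the floor in PIAS1 shRNA2 cells in DMEM. VIM, CD44, CAV1 and AXL, which mark this cell line, were bright on all arrays, at 15004 or more, while PGR and CDH1 were under the floor. ESR1 and EPCAM were above it at 206 to 1067, and GATA3, which was listed as low or absent in this line, was at 1718 to 6040.

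Some technical and marker values moved with the medium. The ACTB control probe sets at the 3' and 5' ends reflect how intact the RNA was. Their ratio was 1.11 in PIAS1 shRNA2 cells and 1.07 in control shRNA cells in SCM. In DMEM it was 0.946 in PIAS1 shRNA2 cells and 0.982 in control shRNA cells. The same ratio for GAPDH did not separate by medium. It was 0.879 in PIAS1 shRNA2 cells and 0.834 in control shRNA cells in SCM. In DMEM the GAPDH ratio was 0.858 in PIAS1 shRNA2 cells and 0.860 in control shRNA cells. The 7 markers of blood, endothelial and stromal cells summed to 6518 in PIAS1 shRNA2 cells and 4542 in control shRNA cells in SCM, against 1771 in PIAS1 shRNA2 cells and 1766 in control shRNA cells in DMEM, with 3 above the floor in control shRNA cells in DMEM and 4 on each other array. Most of the SCM sums came from PECAM1, an endothelial marker, and PDGFRB. The blood marker PTPRC and the endothelial marker CDH5 were under the floor on all arrays. COL1A1, at 695 to 991, was above it on every array. Of the other blood markers, CD3E passed the floor only in control shRNA cells in SCM, at 220. CD79A passed it only in PIAS1 shRNA2 cells, at 225 in SCM and 233 in DMEM. The part of these values in the results was not tested.

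Of the 59 proteasome probe sets, 56 were above the floor on every array. The other 3, on PSMB1, PSMD4 and PSMD5, were under it on every array, and each of these genes had a brighter probe set. Each gene was read from its brightest probe set, which left all 36 genes measured, with signals between 2282 for PSMG1 in control shRNA cells in SCM and 43035 for PSMA7 in PIAS1 shRNA2 cells in DMEM. Signals of different probe sets are not comparable as amounts of RNA, so genes are compared only by ratios within a probe set, and a sum of signals depends on how bright each probe set is. A further 5 probe sets are listed with a second gene, among them those of PSMA6 and PSME2, and were left out. PSMC5, PSMD7, PSMD13, PSMA8, PSMG3 and PSMG4 were not analysed here. The signal in PIAS1 shRNA2 cells over that in control shRNA cells is called the knockdown ratio, and that in SCM over that in DMEM the medium ratio. Because subunits of a complex differ little, a gene was counted as higher or lower where its log2 ratio was at least 0.32 in size, which is a signal 25% higher, and 2-fold was used beside it.

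**Figure D1:**
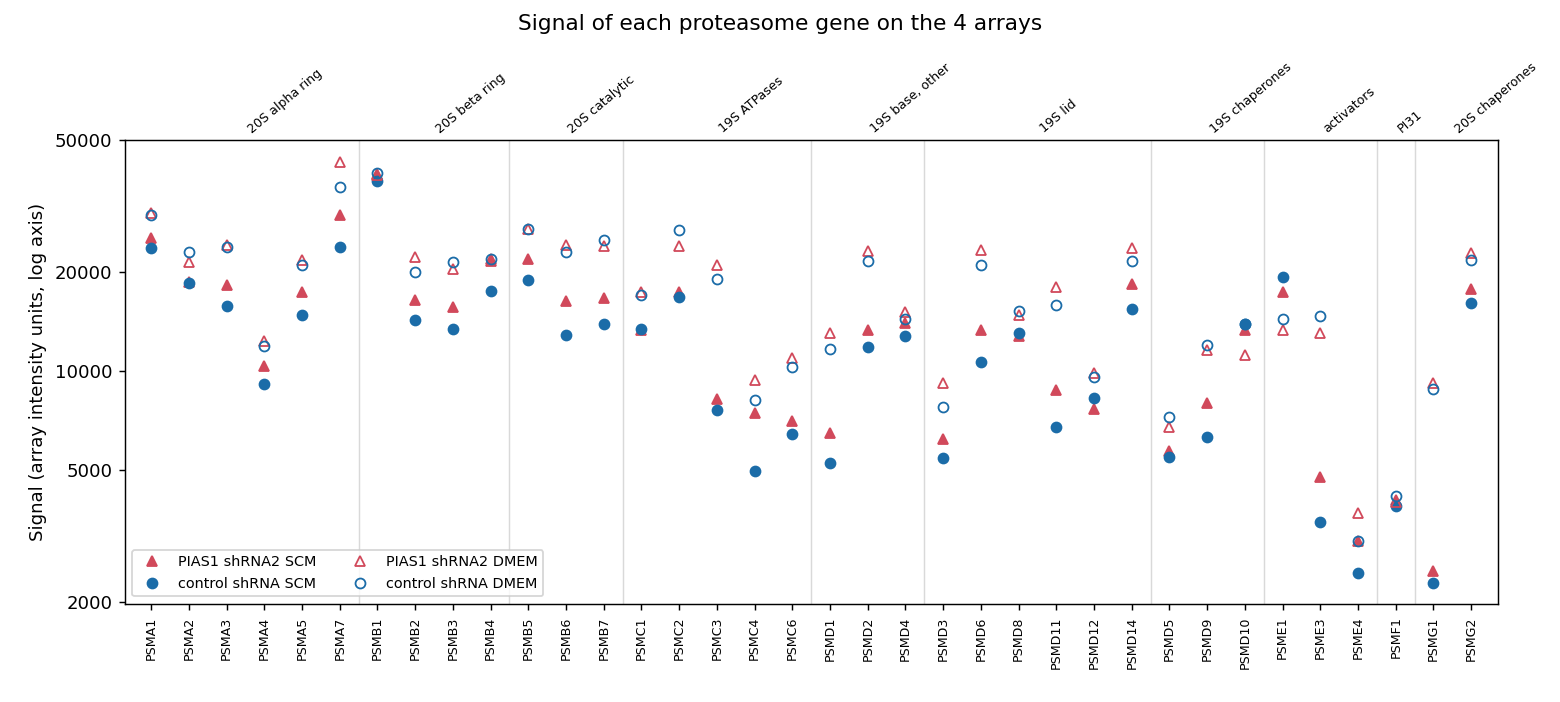
Array signal (intensity units, log axis) for each of the 36 proteasome genes on the 4 arrays, 1 array per condition, grouped by role. Triangles are PIAS1 shRNA2 and circles control shRNA, filled in SCM and open in DMEM; both filled symbols lie below both open symbols for 32 genes and above them only for PSME1.

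The medium was the comparison in which the proteasome genes differed most. All arrays have the same mean without their extremes, so a lower signal is lower relative to the other genes of its array. It does not give the amount of RNA per cell. In these cultures, a lower relative level within cells and a different mix of cells cannot be told apart. Both SCM signals were below both DMEM signals for 32 of 36 genes, a pattern that 33.6% of all 9572 genes above the floor showed. The opposite pattern, both SCM signals above both DMEM signals, held for 1 proteasome gene, PSME1, and for 32.9% of all genes. In PIAS1 shRNA2 cells, 23 of 36 genes were counted as lower in SCM than in DMEM and 1 as higher, where 32.9% and 32.2% of all genes were. In control shRNA cells 27 were lower and 1 was higher, against 31.8% and 33.4% of all genes. The median log2 ratio was -0.37 in PIAS1 shRNA2 cells and -0.50 in control shRNA cells, and that of all genes was -0.01 in PIAS1 shRNA2 cells and 0.03 in control shRNA cells. By any amount, 4 genes in PIAS1 shRNA2 cells and 1 in control shRNA cells were higher in SCM, against 49.4% of all genes in PIAS1 shRNA2 cells and 52.0% in control shRNA cells.

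The genes counted as lower were largely shared by the lines, which have no array in common in this comparison. In both lines, 22 genes were counted as lower, or 61.1%, against 23.4% of all genes, PSME1 was higher in both, against 22.6%, and none was counted in opposite directions, against 2.16%. On their brightest probe sets, PSMA1, PSMA4, PSMB5, PSMD5 and PSME4 passed this ratio in control shRNA cells alone, and PSMD12 in PIAS1 shRNA2 cells alone. None of these differences between the lines could be tested. The dimmer probe set of PSMD12 was past the limit in both lines. A PSMA1 probe set, at -0.24 in control shRNA cells, passed in neither line. The dimmer probe sets of PSME4 passed either in both lines or in neither. At 2-fold, 5 genes were lower in each line, and they were PSMC3, PSMD1, PSMD11, PSME3 and PSMG1 in both. None was 2-fold higher, against 10.9% of all genes in PIAS1 shRNA2 cells and 10.6% in control shRNA cells. The share of all genes at least 2-fold lower in SCM was 10.4% in PIAS1 shRNA2 cells and 10.8% in control shRNA cells, so for these 36 genes a count of 5 is near the background. The shift was thus mostly below 2-fold. Summed over the 36 genes, the proteasome made up 1.09% of the signal of all named genes in PIAS1 shRNA2 cells and 0.975% in control shRNA cells in SCM, against 1.45% in PIAS1 shRNA2 cells and 1.42% in control shRNA cells in DMEM.

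Most of these genes are bright, so they were also set beside genes of like brightness. Among the 2754 genes above the 75th percentile of every array, a limit chosen after seeing the data, 29.7% were counted as lower in SCM and 27.2% as higher in PIAS1 shRNA2 cells, and 31.2% as lower and 26.4% as higher in control shRNA cells. Of the 34 proteasome genes in that range, 22 were lower and 1 was higher in PIAS1 shRNA2 cells, and 25 were lower and 1 was higher in control shRNA cells.

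**Figure D2:**
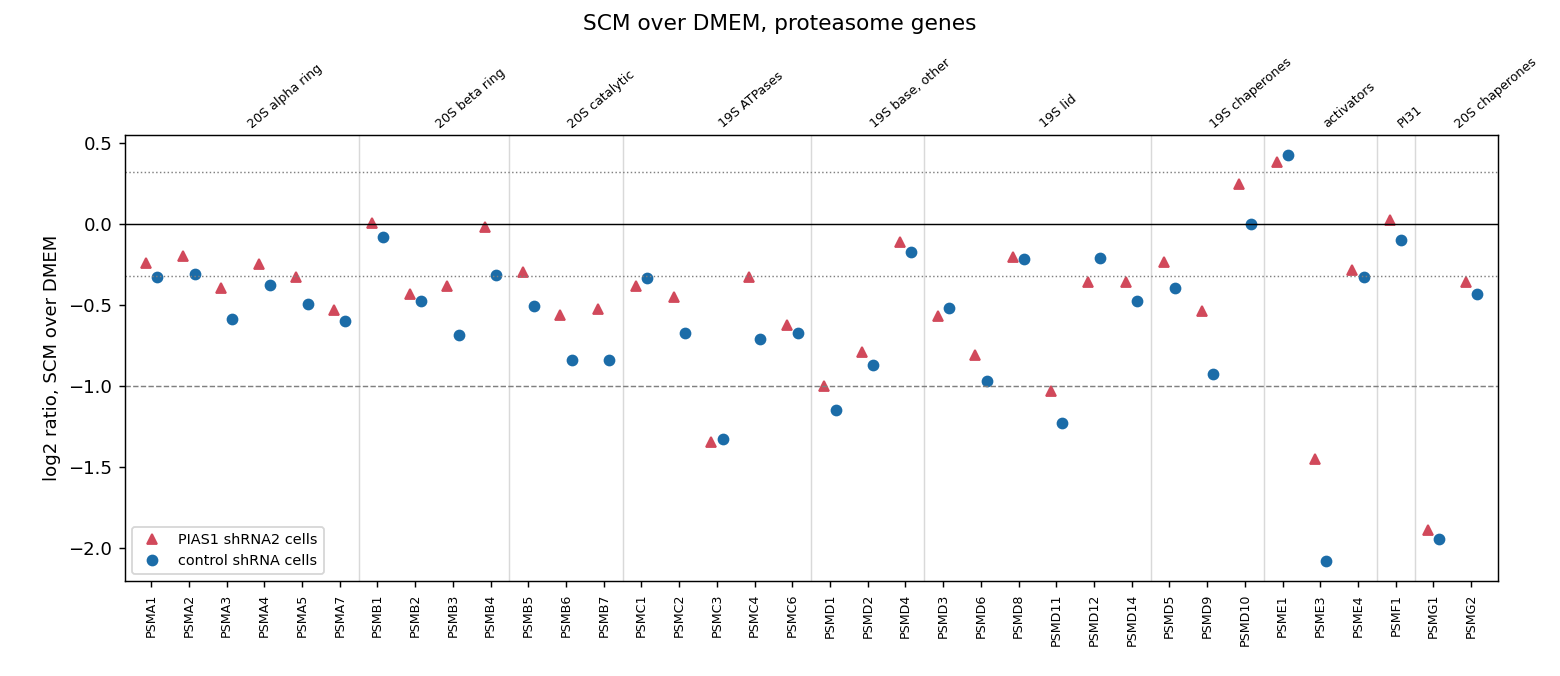
Log2 medium ratio, SCM over DMEM (y axis) for each of the 36 proteasome genes (x axis, grouped by role), 1 array per condition. Triangles are PIAS1 shRNA2 cells and circles control shRNA cells, dotted lines mark 0.32 and -0.32 and the dashed line 2-fold lower; PSMG1 and PSME3 lie lowest and PSME1 alone lies above the upper dotted line.

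In the core particle, 12 of 13 genes in PIAS1 shRNA2 cells and all 13 in control shRNA cells were lower in SCM by any amount. Of all genes, 49.4% in PIAS1 shRNA2 cells and 52.0% in control shRNA cells were higher in SCM by any amount. The core genes had median log2 ratios of -0.33 in PIAS1 shRNA2 cells and -0.50 in control shRNA cells. The catalytic subunits were lower in SCM in both lines. PSMB6, which carries the caspase-like site, read 16269 in PIAS1 shRNA2 cells and 12824 in control shRNA cells in SCM, against 24013 in PIAS1 shRNA2 cells and 22966 in control shRNA cells in DMEM. In SCM it was at 67.8% of its DMEM signal in PIAS1 shRNA2 cells and 55.8% in control shRNA cells. PSMB7, with the trypsin-like site, was at 69.5% in PIAS1 shRNA2 cells and 55.8% in control shRNA cells. PSMB5, with the chymotrypsin-like site that bortezomib blocks, was at 81.3% in PIAS1 shRNA2 cells and 70.4% in control shRNA cells. The non-catalytic beta subunits spread more widely. PSMB1 read 39480 in PIAS1 shRNA2 cells and 37641 in control shRNA cells in SCM, against 39339 in PIAS1 shRNA2 cells and 39813 in control shRNA cells in DMEM, so its groups overlapped. PSMB3 was at 76.6% of its DMEM signal in PIAS1 shRNA2 cells and 62.2% in control shRNA cells. In the alpha ring, which gates the core, PSMA7 was lowest in both lines by the brightest probe sets. It was at 69.0% in PIAS1 shRNA2 cells and 65.8% in control shRNA cells. On its dimmer probe set PSMA7 was at 62.3% in PIAS1 shRNA2 cells and 74.5% in control shRNA cells. PSMA3 was at 75.9% in PIAS1 shRNA2 cells and 66.6% in control shRNA cells. PSMA2 was not counted as lower on its brightest probe set, at 86.9% in PIAS1 shRNA2 cells and 80.6% in control shRNA cells, but was at 56.0% in PIAS1 shRNA2 cells and 60.5% in control shRNA cells on its dimmer one.

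The 14 genes of the regulatory particle were all lower in SCM by any amount in both lines. Their median log2 ratio was -0.51 in PIAS1 shRNA2 cells and -0.67 in control shRNA cells. Counted as lower were 12 of the 14 in PIAS1 shRNA2 cells and 11 in control shRNA cells. Of all genes, 32.9% in PIAS1 shRNA2 cells and 31.8% in control shRNA cells were counted as lower. By any amount, 49.4% of all genes in PIAS1 shRNA2 cells and 52.0% in control shRNA cells were higher in SCM. Among the ATPases of the base, which unfold the substrate, PSMC3 stood lowest. Its signal was 8234 in PIAS1 shRNA2 cells and 7594 in control shRNA cells in SCM, against 20934 in PIAS1 shRNA2 cells and 19055 in control shRNA cells in DMEM. This was 39.3% of the DMEM signal in PIAS1 shRNA2 cells and 39.9% in control shRNA cells. The other 4 ATPase genes measured had log2 ratios between -0.33 and -0.63 in PIAS1 shRNA2 cells and between -0.34 and -0.71 in control shRNA cells. PSMD1 and PSMD2 are the large scaffold subunits of the base. PSMD1 read 6491 in PIAS1 shRNA2 cells and 5261 in control shRNA cells in SCM, against 13012 in PIAS1 shRNA2 cells and 11683 in control shRNA cells in DMEM. Its other probe set was at 60.8% of its DMEM signal in PIAS1 shRNA2 cells and 45.2% in control shRNA cells, so the 2-fold difference in PIAS1 shRNA2 cells rests on the brighter probe set, at 49.9%. PSMD2 was at 57.8% of its DMEM signal in PIAS1 shRNA2 cells and 54.7% in control shRNA cells. PSMD4, a ubiquitin receptor of the base, was little different between media on all 3 of its probe sets above the floor, with 92.4% in PIAS1 shRNA2 cells and 88.7% in control shRNA cells on the brightest.

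In the lid, PSMD11 and PSMD6 were lowest. PSMD11, whose level has been tied to proteasome assembly in human embryonic stem cells, read 8772 in PIAS1 shRNA2 cells and 6742 in control shRNA cells in SCM, against 17926 in PIAS1 shRNA2 cells and 15802 in control shRNA cells in DMEM. Its dimmer probe set was at 110% of the DMEM signal in PIAS1 shRNA2 cells, and at 72.3% in control shRNA cells, where it was also past the limit for lower, so the 2-fold difference rests on the brighter probe set. PSMD6 was at 57.0% of its DMEM signal in PIAS1 shRNA2 cells and 51.0% in control shRNA cells. PSMD14, the deubiquitinase of the lid, read 18403 in PIAS1 shRNA2 cells and 15411 in control shRNA cells in SCM, against 23630 in PIAS1 shRNA2 cells and 21478 in control shRNA cells in DMEM. PSMD8 and PSMD12, structural subunits of the lid, were above 75% of their DMEM signal in both lines on their brightest probe sets. The dimmer probe set of PSMD12 was at 78.3% in PIAS1 shRNA2 cells and 74.9% in control shRNA cells. The chaperones that assemble the regulatory particle did not move alike. The log2 medium ratio of PSMD9 was -0.54 in PIAS1 shRNA2 cells and -0.93 in control shRNA cells, and on its dimmer probe set -0.52 in PIAS1 shRNA2 cells and -0.20 in control shRNA cells, which is not past the limit. That of PSMD5 was -0.23 in PIAS1 shRNA2 cells and -0.40 in control shRNA cells. PSMD10, also known as gankyrin, read 13305 in PIAS1 shRNA2 cells and 13928 in control shRNA cells in SCM, against 11213 in PIAS1 shRNA2 cells and 13929 in control shRNA cells in DMEM, and its groups overlapped.

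The activators held the highest ratio in both lines, that of PSME1, and the lowest in control shRNA cells, that of PSME3. PSME3 encodes PA28-gamma, a nuclear activator of the core. Its signal was 4779 in PIAS1 shRNA2 cells and 3475 in control shRNA cells in SCM, against 13057 in PIAS1 shRNA2 cells and 14721 in control shRNA cells in DMEM. This was 36.6% of the DMEM signal in PIAS1 shRNA2 cells and 23.6% in control shRNA cells. Its 4 probe sets all showed this, at 23.7% to 37.5% in PIAS1 shRNA2 cells and at 21.0% to 26.6% in control shRNA cells. PSME1, which encodes PA28-alpha, a cytoplasmic activator induced by interferon-gamma, went the other way. It read 17320 in PIAS1 shRNA2 cells and 19233 in control shRNA cells in SCM, against 13308 in PIAS1 shRNA2 cells and 14366 in control shRNA cells in DMEM. It was 1.30-fold higher in SCM in PIAS1 shRNA2 cells and 1.34-fold higher in control shRNA cells. PSME4, which encodes the activator PA200, was on its brightest probe set at 82.0% of its DMEM signal in PIAS1 shRNA2 cells and 79.7% in control shRNA cells. Its other probe sets spread to both sides, one at 70.4% in PIAS1 shRNA2 cells and 51.3% in control shRNA cells and one at 97.3% in PIAS1 shRNA2 cells and 89.6% in control shRNA cells. PSMF1, which encodes the inhibitor PI31, was at 102% in PIAS1 shRNA2 cells and 93.4% in control shRNA cells on its brighter probe set. On the other it was at 69.7% in PIAS1 shRNA2 cells and 48.8% in control shRNA cells. Its probe sets thus disagreed on whether it was lower in SCM.

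PSMG1 and PSMG2 form a chaperone pair that starts the assembly of the alpha ring. PSMG1 read 2480 in PIAS1 shRNA2 cells and 2282 in control shRNA cells in SCM, against 9190 in PIAS1 shRNA2 cells and 8791 in control shRNA cells in DMEM. These are log2 ratios of -1.89 in PIAS1 shRNA2 cells and -1.95 in control shRNA cells, so the lines differed far less than the media. Its partner PSMG2 was at 78.0% of its DMEM signal in PIAS1 shRNA2 cells and 74.1% in control shRNA cells. The pair thus differed unequally, and PSMG1 has only 1 probe set.

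**Figure D3:**
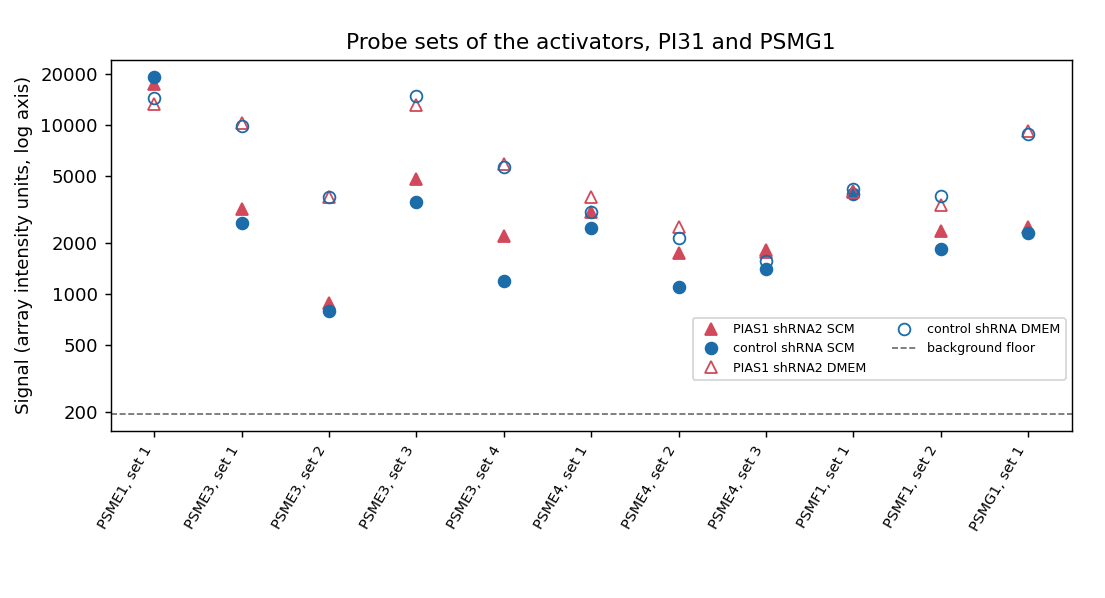
Signal (array intensity units, log axis) of every probe set of PSME1, PSME3, PSME4, PSMF1 and PSMG1 on the 4 arrays, 1 array per condition; the floor of 195 is dashed. Triangles are PIAS1 shRNA2 and circles control shRNA, filled in SCM and open in DMEM; the filled symbols of all 4 PSME3 probe sets and of PSMG1 lie below the open ones, and those of PSME1 above.

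Promoters were searched for sequences that proteasome genes are known to use. RefSeq (GRCh38.p14) promoters were matched for 31 of the 36 genes, and the 250 bases before the first listed start were read on both strands. The core of the antioxidant response element, TGACNNNGC, which NRF1 and NRF2 can bind, was found in 9 of the 31, or 29.0%, against 11.9% of the promoters of 9562 genes of the array and 11.0% of 27305 promoters in all. The CCAAT box, CCAAT, was in 14 of 31 or 45.2%, against 35.6% of the genes of the array and 33.0% of all. The GC box, GGGCGG, was in 61.3%, against 60.6% and 42.3%, and the ETS motif CCGGAAG was in 22.6%, against 12.8% and 8.82%. Among the 9 with the element were the gene with the lowest ratio in PIAS1 shRNA2 cells, PSMG1, and the gene that was higher in SCM, PSME1. The log2 ratio of SCM over DMEM had a median of -0.36 over these 9 genes in PIAS1 shRNA2 cells and -0.43 in control shRNA cells, and over the 22 genes without it -0.37 in PIAS1 shRNA2 cells and -0.50 in control shRNA cells. A match is a description of these letters and not of a bound site. To show the element across this range of ratios, 60 bases of each of 5 promoters are given with the match in capitals, from PSMG1 (chr21:39183601-39183660, minus strand), PSMD9 (chr12:121888662-121888721, plus strand), PSMD3 (chr17:39980744-39980803, plus strand), PSMB3 (chr17:38752611-38752670, plus strand) and PSME1 (chr14:24136082-24136141, plus strand).
PSMG1: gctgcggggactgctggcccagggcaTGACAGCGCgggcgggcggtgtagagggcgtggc
PSMD9: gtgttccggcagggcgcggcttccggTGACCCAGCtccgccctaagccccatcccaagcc
PSMD3: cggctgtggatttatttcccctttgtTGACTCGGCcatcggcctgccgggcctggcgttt
PSMB3: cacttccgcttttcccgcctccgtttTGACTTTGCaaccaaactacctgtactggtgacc
PSME1: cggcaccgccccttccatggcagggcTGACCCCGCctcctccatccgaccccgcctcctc

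Read against these sequences, the log2 medium ratio in PIAS1 shRNA2 cells was -1.89 for PSMG1, -0.54 for PSMD9, -0.57 for PSMD3 and -0.38 for PSMB3, and 0.38 for PSME1. The matched letters were TGACAGCGC in PSMG1, TGACCCAGC in PSMD9, TGACTCGGC in PSMD3, TGACTTTGC in PSMB3 and TGACCCCGC in PSME1, and PSMD9 held a second match, TGACCCGGC, on the opposite strand and farther from the start. The matches shown began 183, 102, 37, 104 and 86 bases before the start, in this order.

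Other genes of the pathway, from lists chosen with earlier results of these data known, placed the proteasome genes among their neighbours. Of 11 associated factors, 5 were counted as lower in SCM and 1 was higher in each line, where 32.9% of all genes were lower and 32.2% higher in PIAS1 shRNA2 cells and 31.8% and 33.4% in control shRNA cells. Their median log2 ratios were -0.22 in PIAS1 shRNA2 cells and -0.31 in control shRNA cells. ADRM1, a ubiquitin receptor of the regulatory particle, was at 57.7% of its DMEM signal in PIAS1 shRNA2 cells and 51.7% in control shRNA cells. USP14, a deubiquitinase of the regulatory particle, read 15063 in PIAS1 shRNA2 cells and 13613 in control shRNA cells in SCM, against 22268 in PIAS1 shRNA2 cells and 23070 in control shRNA cells in DMEM. The core chaperone gene POMP was at 101% in PIAS1 shRNA2 cells and 98.8% in control shRNA cells. PAAF1, which binds the ATPases and limits the joining of core and regulatory particle, was 1.81-fold higher in SCM in PIAS1 shRNA2 cells and 1.64-fold higher in control shRNA cells. The 4 measured genes of NRF1 and its regulation had median log2 ratios of 0.43 in PIAS1 shRNA2 cells and 0.31 in control shRNA cells, and did not move alike. The transcription factor gene NFE2L1 itself was 1.61-fold higher in PIAS1 shRNA2 cells and 1.53-fold higher in control shRNA cells in SCM, and NGLY1, whose product deglycosylates NRF1, was 1.68-fold higher in PIAS1 shRNA2 cells and 1.92-fold higher in control shRNA cells. NFE2L2, which encodes NRF2, was at 113.4% of its DMEM signal in PIAS1 shRNA2 cells and 100.7% in control shRNA cells. VCP, which extracts NRF1 from the endoplasmic reticulum, was at 85.7% of its DMEM signal in PIAS1 shRNA2 cells and at 72.0% in control shRNA cells, where it was counted as lower. The immune subunits had log2 ratios of SCM over DMEM between 0.03 and 0.31 in PIAS1 shRNA2 cells and between -0.31 and 0.26 in control shRNA cells, and none was counted as higher or lower. Of 10 measured genes of ubiquitin supply and shuttling, 5 were counted as lower in PIAS1 shRNA2 cells, and 3 as lower and 1 as higher in control shRNA cells, against the same shares of all genes, so the 3 lower genes in control shRNA cells are near the background. The medians were -0.28 in PIAS1 shRNA2 cells and -0.04 in control shRNA cells. UFD1, a partner of the segregase VCP, had the lowest ratio of this list, -0.82 in PIAS1 shRNA2 cells and -1.13 in control shRNA cells.

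Among other large complexes, the CCT chaperonin, which folds actin and tubulin, had lower medians. Its 7 measured genes had a median log2 ratio of -0.93 in PIAS1 shRNA2 cells and -1.06 in control shRNA cells, and CCT5 was at 36.6% of its DMEM signal in PIAS1 shRNA2 cells and 25.3% in control shRNA cells. The COP9 signalosome, built on the same plan as the lid, had a median of -0.33 in PIAS1 shRNA2 cells and -0.37 in control shRNA cells over 9 genes, with COPS3 at 40.6% in both lines. The initiation factor eIF3, also related to the lid, had a median of -0.28 in PIAS1 shRNA2 cells and -0.21 in control shRNA cells over 12 genes. With 1 array per condition these lists can only be set side by side.

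**Figure D4:**
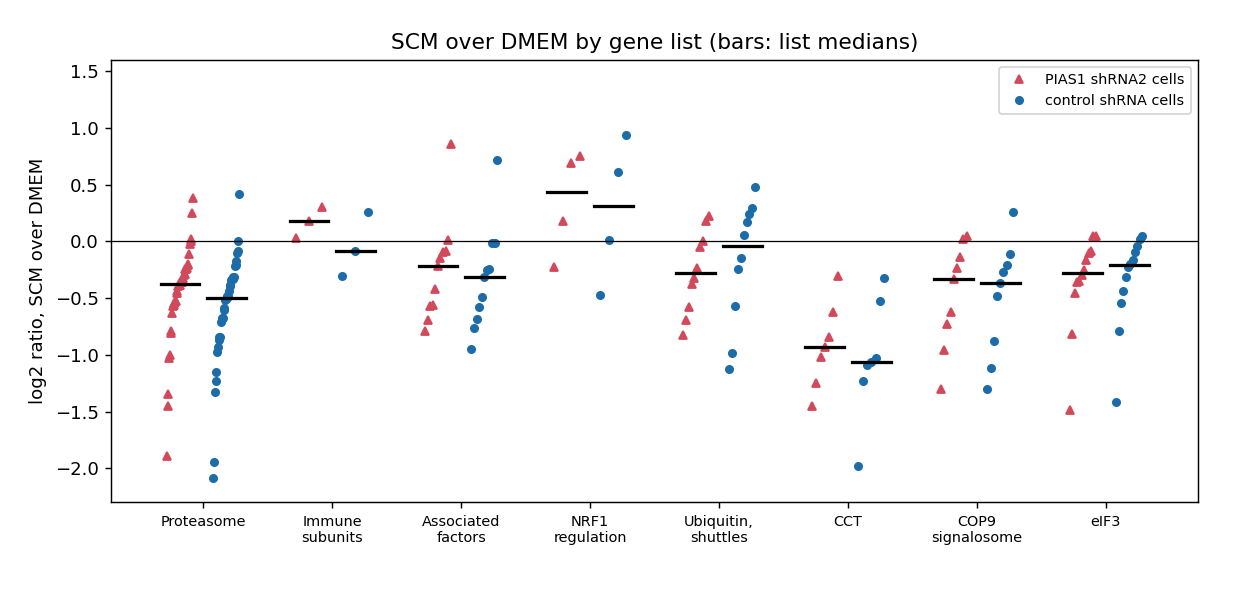
Log2 medium ratio, SCM over DMEM (y axis) for the 36 proteasome genes and the measured genes of 7 other lists (x axis), 1 array per condition. Triangles are PIAS1 shRNA2 cells, circles control shRNA cells and bars list medians, which are -0.37 in PIAS1 shRNA2 cells and -0.50 in control shRNA cells for the proteasome and -0.93 in PIAS1 shRNA2 cells and -1.06 in control shRNA cells for CCT.

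The knockdown ratios of these genes were small, and larger in SCM than in DMEM. In SCM, 31 of 36 genes had a higher signal with PIAS1 shRNA2 than with control shRNA, where 50.3% of all genes did. The median log2 ratio was 0.18, or 1.14-fold, and that of all genes was 0.00. Counted as higher were 6 genes, or 16.7%, which is near the 17.9% of all genes, and none was counted as lower, against 17.0% of all genes. None was 2-fold higher or lower, against 2.13% and 1.38%. The proteasome genes thus lay close together on the higher side rather than far out. Over the 2754 bright genes, 8.61% were counted as higher and 8.39% as lower, and of the 34 proteasome genes in that range 5 and 0 were. For the 16 genes with several probe sets, the ratios of a gene's probe sets spanned a median of 0.15 on the log2 scale, where a probe set under the floor has a log2 ratio of 0. This span is close to the median ratio itself.

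The 6 genes were PSMC4, PSME3, PSMD11, PSMD9, PSMB6 and PSME4. PSMC4, an ATPase of the base, was highest, with 7476 in PIAS1 shRNA2 cells and 4991 in control shRNA cells in SCM, a log2 ratio of 0.58. In DMEM it read 9402 in PIAS1 shRNA2 cells and 8159 in control shRNA cells, a log2 ratio of 0.20. PSME3 was 1.38-fold higher in SCM on its brightest probe set and 1.12-fold to 1.85-fold over its 4 probe sets. In DMEM its brightest probe set was at 88.7% of control, and the other 3 were at 103.1%, 100.2% and 104.0%. PSMD9 was 1.27-fold higher in SCM and at 96.9% of control in DMEM on its brighter probe set, and on the dimmer one 1.17-fold higher in SCM and 1.46-fold higher in DMEM. PSMD11 was 1.30-fold higher in SCM on its brighter probe set and 1.42-fold on the other. PSME4 had a log2 ratio of 0.32 on its brightest probe set, and its other probe sets were 1.58-fold and 1.26-fold higher. The catalytic subunits in SCM had log2 ratios of 0.34 for PSMB6, 0.26 for PSMB7 and 0.21 for PSMB5, and the deubiquitinase PSMD14 had 0.26. PSMA7, just under the limit on its brightest probe set at 0.32, was at 88.6% of control on its other probe set. PSMD1 and PSMF1, not counted as higher on their brightest probe sets, were 1.45-fold and 1.27-fold higher on the other. Lowest in SCM were PSME1 with -0.15, PSMD12 with -0.11 and PSMD10 with -0.07.

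In DMEM the genes lay around the median of all genes. By any amount 24 of 36 were higher in PIAS1 shRNA2 cells, against 51.6% of all genes. None was counted as higher or lower, where 15.6% and 12.9% of all genes were, and none was 2-fold higher or lower, against 1.45% and 0.783%. Of the 34 in the bright range none was counted either, against 4.83% higher and 6.25% lower. The median log2 ratio was 0.04, beside 0.01 for all genes. Once all arrays were brought to the same median, which moves every gene alike, it was -0.02 beside -0.04. Highest were PSME4 with 0.28, PSMA7 with 0.25 and PSMD3, a subunit of the lid, with 0.24. Lowest was PSMD10 with -0.31, with 11213 in PIAS1 shRNA2 cells and 13929 in control shRNA cells, followed by PSME3 with -0.17, on the brightest of its 4 probe sets alone, and PSMC2, an ATPase of the base, with -0.16. The catalytic subunits PSMB5, PSMB6 and PSMB7 had 0.00, 0.06 and -0.06.

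**Figure D5:**
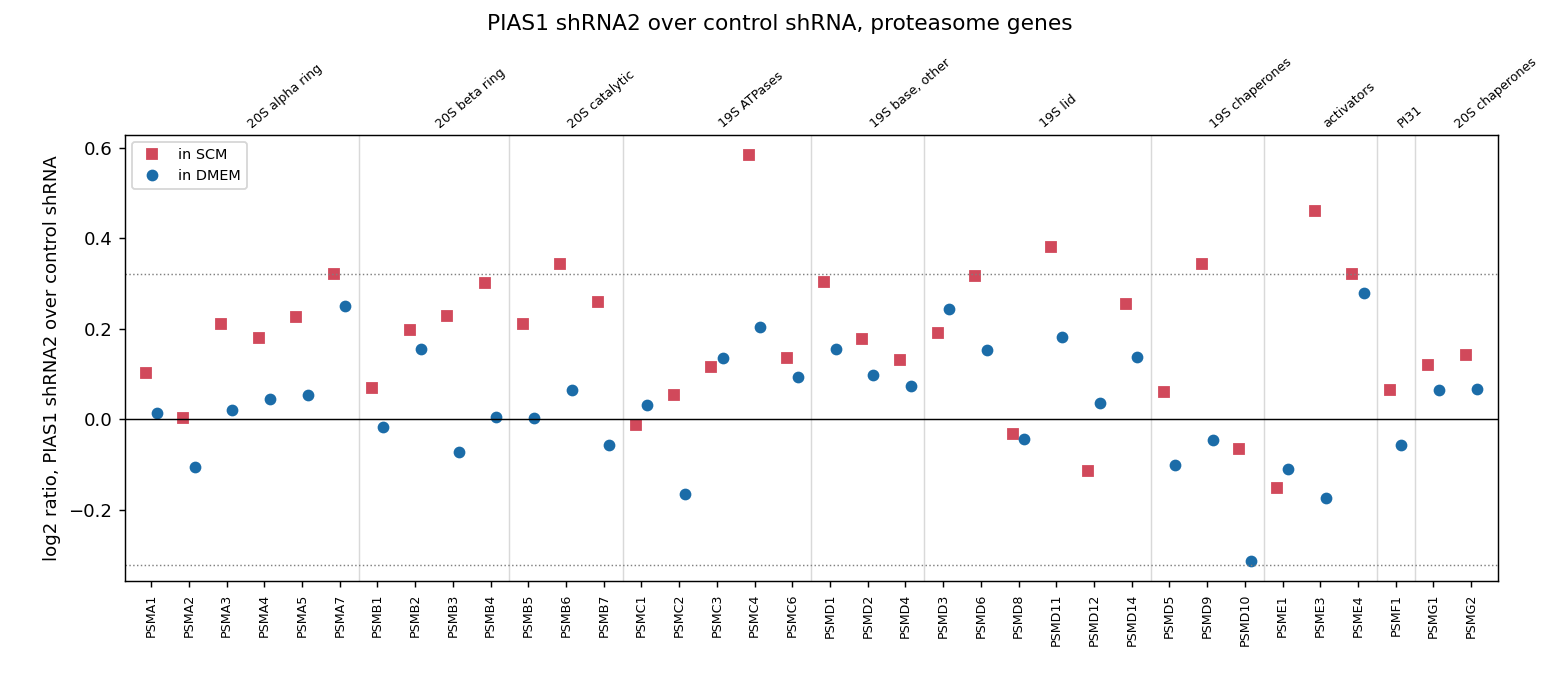
Log2 knockdown ratio (y axis) for each of the 36 proteasome genes (x axis, grouped by role) in SCM (squares) and in DMEM (circles), 1 array per condition; dotted lines mark 0.32 and -0.32. In SCM 31 genes lie above 0 and 6 above the upper dotted line, and in DMEM 24 lie above 0 and none passes a dotted line.

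Set against each other, the knockdown ratio was higher in SCM than in DMEM for 31 of 36 genes, and for 49.4% of all genes. The difference of the log2 ratios had a median of 0.12, with the highest value at 0.63 for PSME3 and the lowest at -0.15 for PSMD12. It is by arithmetic also the ratio of SCM over DMEM in PIAS1 shRNA2 cells minus that in control shRNA cells. Of the 32 genes lower in SCM in both lines, 28 accordingly differed less between media in PIAS1 shRNA2 cells. Both knockdown ratios were above 0 for 22 genes and below 0 for PSMD8, PSMD10 and PSME1, so 25 genes, or 69.4%, had the same sign in both media, against 50.8% of all genes. No proteasome gene was counted as higher in both media, as lower in both or in opposite directions, against 4.48%, 3.77% and 3.66% of all genes. The difference between the media rests on 4 arrays with 1 per condition and was not tested.

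The immune subunits, which replace the catalytic subunits in cells exposed to interferon-gamma, were lower with the knockdown in DMEM. All 3 were counted as lower there, against 12.9% of all genes, with log2 knockdown ratios of -0.53 for PSMB8, -0.49 for PSMB9 and -0.42 for PSMB10. In SCM only PSMB9 was, against 17.0% of all genes, with 7483 in PIAS1 shRNA2 cells and 11098 in control shRNA cells, and PSMB8 was at 87.9% of control and PSMB10 at 98.2%. PSME1, the interferon-induced activator among the 36 genes, was at 90.1% of control in SCM and 92.6% in DMEM. Whether these ratios differ from those of the constitutive subunits could not be tested with 1 array per condition. ADRM1 had log2 knockdown ratios of 0.33 in SCM and 0.17 in DMEM, and NFE2L1 of 0.25 in SCM and 0.17 in DMEM.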

How the data were processed

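The authors deposited signal intensities of 4 Affymetrix human genome arrays as linear values made with MAS5, according to the submitters' processing notes; its settings and version were not given in the sources used. Arrays were grouped by shRNA and medium from their titles, 1 array per condition, and their number limits the precision. The titles name a PIAS1 shRNA without its number, and that it was shRNA2 was taken from the methods of the paper. Gene names came from the platform annotation, in which 19070 probe sets had 1 gene, 1043 several and 2164 none listed. The symbols of all 59 proteasome probe sets were the same in RefSeq for GRCh38.p14.

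Signals were raised to 195, the highest of the 4 arrays' 75th percentiles over 86 probe sets of 60 genes of other tissues, and log2 ratios were taken on the brightest probe set of each gene. Genes with both signals under the floor were left out of each comparison. No test was run. The alternatives were other floors, scalings and ways to join probe sets. Named by rule were PIAS1, the 3 highest and 3 lowest genes of each comparison, every gene past 2-fold, the catalytic subunits, PSMD14, PSMD2, PSMD4, the activators, PSMF1, the assembly chaperones and up to 4 genes of each other list with the largest ratios; other genes were named after their values were seen. The members and lists were chosen with earlier results of these data known. Steps were tested on simulated data. Python 3.11.15, NumPy 2.4.6, pandas 2.3.3 and matplotlib 3.10.9 were used.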

Additional observations from a re-analysis of the deposited data

Results flagged for a closer look

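In 11 proteasome genes the log2 knockdown ratio had opposite signs in SCM and in DMEM. It was above 0 in SCM and below 0 in DMEM for 9 genes, or 25%, against 18.4% of all genes, and the reverse for 2, or 5.56%, against 19% of all genes. The SCM value less the DMEM value was 0.63 for PSME3, 0.39 for PSMD9, 0.32 for PSMB7, 0.30 for PSMB3, 0.22 for PSMC2, 0.16 for PSMD5, 0.12 for PSMF1, 0.11 for PSMA2 and 0.0861 for PSMB1, and it was -0.15 for PSMD12 and -0.0446 for PSMC1. These values are from the brightest probe set. The other probe sets above the floor had 1 sign in both media for PSME3, PSMD9, PSMD12, PSMB1 and PSMA2, and opposite signs for PSMC2 and PSMF1. Each ratio comes from 1 array per condition, none of the 11 was counted as higher in SCM and lower in DMEM or the reverse, and these differences were not tested.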

How the results depend on the processing

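Each of 13 results was recomputed with no floor, a floor at the highest array median, a common median, quantile normalization, the mean of a gene's probe sets, every probe set on its own and probe sets without the s or x suffix, and, chosen after seeing the data, 12 of them over genes above the 75th percentile of every array. The median log2 medium ratio lay between -0.43 and -0.36 in PIAS1 shRNA2 cells and between -0.59 and -0.49 in control shRNA cells. The median knockdown ratio lay between 0.18 and 0.21 in SCM and between -0.02 and 0.04 in DMEM, where its lowest value came with an all-gene median of -0.04. With every probe set on its own, over 56 probe sets, 35 were counted as lower in SCM in PIAS1 shRNA2 cells, against 33.3% of all probe sets. With the knockdown, 12 of the 56 were counted as higher in SCM, against 17.5% of all probe sets, and 1 in DMEM, against 16.7%. With probe sets without the suffix, over 23 genes, 15 were counted as lower by medium in PIAS1 shRNA2 cells, against 31.5% of all genes. With a common median, 1 gene, PSMD10, was counted as lower with the knockdown in DMEM, against 16.5% of all genes. Counts over more probe sets or fewer genes differ by construction. A common median moves every gene alike, and PSMD10 already lay close to the limit without it, at -0.31. No paired test was possible with 1 array per condition, and the labels give no replicate numbers. Each line was read in both media, and the medium ratio is given within each line.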
